A study of Populus alba x Populus glandulosa with 18 samples.

Results

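The cyclins, the cyclin-dependent kinases (CDKs) and the proteins annotated with them were followed through the stem of 84K poplar (Populus alba × P. glandulosa). A gene was taken as a member where its symbol began with CYCA, CYCB, CYCD, CYCP, CYCU, CDKA, CDKB, CDKC or CDKD, or where its description held the word cyclin or cyclin-dependent kinase. The rule found 110 of the 42950 gene models in the count table, 71 of them by symbol and 39 by description alone. RNA-seq had been performed on 18 libraries, 3 for each of 6 groups. PagDET2-OE trees and wild-type 84K trees were 2 months old, and 3 domains of the stem were taken from each. The labels call these domains shoot apical meristem, cambium and xylem. The study's methods give them as primary stem (PS), the pooled apex and youngest internodes, bark (BA), which includes differentiating phloem and cambium, and xylem (XY), the tissue at the surface of the trunk.

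PagDET2 encodes a steroid reductase of brassinosteroid synthesis, and in PagDET2-OE trees it is driven by the constitutive 35S promoter, so that every domain carries the transgene. The labels name no other allele or agent. Several independent PagDET2-OE lines were raised in the study, but no label ties a library to a line or to a tree, so p-values measure the spread between these libraries. Counts of the DET2 gene Potri.016G110600 were 12777 to 25649 in the 9 PagDET2-OE libraries and 46 to 81 in the 9 wild-type libraries. By these counts all 18 libraries followed the genotype of their labels. In each of the 6 groups replicate 3 stood apart. A chi-square statistic of the counts per degree of freedom was 2.16 to 2.49 between replicates 1 and 2 and 4.0 to 6.11 for the 12 pairs with replicate 3.

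A CDK is active only when a cyclin is bound to it. In plants, D-type cyclins pair with CDKA at the entry into the cell cycle, A-type cyclins act from DNA synthesis onward, and B-type cyclins with the plant-specific B-type CDKs drive mitosis. KRP proteins bind and inhibit CDK complexes. P-type cyclins are a plant group that binds CDKA in Arabidopsis, while C-, H-, L- and T-type cyclins with CDKC, CDKD and CDKE act mostly in transcription and in the activation of other CDKs. In a stem, most dividing cells lie at the shoot apex and in the vascular cambium.

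The members fell into 10 A-type, 11 B-type, 25 D-type and 10 P-type cyclins, 22 other cyclins, 5 CDKA, 4 CDKB, 2 CDKC, 4 CDKD and 2 CDKE genes, 5 KRP genes and 10 other genes. The last class holds the pair of TAN (TANGLED) genes, whose Arabidopsis homolog marks the plane of division, and genes described as cyclin-related, as Brf1-like or as a CDK-activating kinase assembly factor. No count was found for 13 members in any library, and 8 more had 1 to 30 counts over all libraries. A filter on low counts left 88 members for at least 1 comparison, and 22 entered none. Where the text says higher or lower, the adjusted p of edgeR's quasi-likelihood test was at most 0.05. A DEG was also changed at least 2-fold. Total counts per library were 7983668 to 12052409. Levels are given as CPM, counts scaled to the library size with TMM factors, and errors of log2 fold changes are standard errors (SE) from the same fit, with 3 libraries per group.

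Among wild-type libraries, the members with the highest length-corrected level differed by domain. In PS the CYCD3;2 gene Potri.005G141900 led with 91.7 ± 2.01 FPKM, followed by Potri.014G066400 (CYCP3;2, 84.0 ± 4.30), Potri.005G257500 (CDKB2;1, 80.3 ± 1.70) and Potri.004G133500 (CDKA;1, 80.2 ± 1.63). The last 3 did not differ beyond their spread (SD, n = 3). In XY the CYCP4;1 gene Potri.012G114600 led with 81.2 ± 5.27 FPKM, ahead of Potri.007G121500 (CYCP2;1, 66.2 ± 7.02) and the KRP3 gene Potri.017G054000 (61.0 ± 6.82), which lay within each other's spread. In BA the same CYCP3;2 gene had 78.6 ± 4.39 FPKM and the CDKA;1 gene 77.1 ± 1.3, again within their spread. No A-type cyclin was above 23.2 ± 3.57 FPKM and no B-type cyclin above 17.3 ± 2.16 FPKM in any wild-type domain.

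The wild-type libraries also show where along the stem each member is expressed. Of 88 members tested between PS and BA, 34 were higher and 26 lower in PS (34.8% and 33.2% of all genes tested). Between XY and BA, 27 were higher and 45 lower in XY (33.6% and 38.3% of all genes), and between PS and XY, 50 were higher and 24 lower in PS (42.1% and 36.6%). Counts against XY depend on the scaling. TMM factors over all 18 libraries were 0.723 to 0.786 in XY and 1.135 to 1.17 in PS and BA. With library totals as the scale, a choice made after seeing the data, the median of all genes moved by -0.58 on the log2 scale for XY over BA, and 8 members were higher and 62 lower in XY. For PS over XY the shift was 0.58, with 62 members higher and 14 lower in PS. The share of all genes called with library totals is not given, so these counts are not read as a trait of the members.

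The mitotic classes were lowest in XY. Of 23 A-type cyclins, B-type cyclins and CDKB genes tested, 20 were lower in XY than in BA (38.3% of all genes). The same number were lower with library totals as the scale, for which no share of all genes is given. The CDKB2;1 gene Potri.005G257500 had 8.94, 5.63 and 8.15 CPM in XY against 36.7, 35.9 and 33.1 CPM in BA, a log2 fold change of -2.19 ± 0.12 (SE). In PS it had 71.7, 68.8 and 70.0 CPM. The CYCA2;1 gene Potri.006G247200, from a group that in Arabidopsis keeps cells in the mitotic cycle, was nearly absent from XY with 3, 3 and 1 counts, against 168, 176 and 217 counts in BA. All 9 A-type cyclins tested were higher in PS than in BA (34.8% of all genes), by 0.32 to 1.77 on the log2 scale. Of 10 B-type cyclins, 3 were higher, near the share of all genes, and 1 was lower (33.2% of all genes).

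Some copies of a single symbol were opposite in their domain. Of 22 symbols with at least 2 tested copies, 4 had a copy higher and a copy lower in XY than in BA. They were CYCA2;4, CYCB3;1, CYCD3;1 and KRP3. With library totals as the scale 5 symbols did so, these without CYCA2;4 and also CYCP1;1 and CYCP4;1. No share over all symbols with copies is given, so these counts are not read as a trait of the members. The CYCB3;1 gene Potri.010G173200 had 46.0, 43.3 and 47.1 CPM in XY against 18.9, 20.3 and 15.9 CPM in BA (log2 fold change 1.33 ± 0.11), whereas its copy Potri.008G083200 had 2.23, 2.96 and 4.08 CPM in XY against 4.85, 5.80 and 4.79 CPM in BA (-0.68 ± 0.22). Among KRP3 genes, Potri.017G054000 had 76.6, 76.3 and 63.9 CPM in XY against 30.6, 29.0 and 28.5 CPM in BA, while Potri.002G242100 had 2.87, 3.56 and 5.15 CPM in XY against 16.4, 15.9 and 15.4 CPM in BA. How reads shared by near-identical copies were counted is not given in the sources used here, so the split between copies is uncertain.

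P-type cyclins and an unnamed cyclin were the leading XY members. The CYCP1;1 gene Potri.002G052800 had 309, 304 and 312 CPM in XY against 63.4, 60.8 and 60.7 CPM in BA (log2 fold change 2.34 ± 0.07, or 1.77 ± 0.07 with library totals). CYCP2;1 was higher in XY by 2.35 ± 0.13. Potri.005G033600, described as a cyclin family protein (chromosome 5, 2502461 to 2505295 in the P. trichocarpa v3.1 annotation of the file), had 335, 421 and 461 counts in XY libraries, against 12, 8 and 10 in BA libraries and 0, 0 and 5 in PS libraries. Its log2 fold change for XY over BA was 6.02 ± 0.25.

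At the other end of the stem, several D-type cyclins were near the floor of detection outside PS. CYCD5;1 (Potri.007G055300) had 30, 25 and 25 counts in PS libraries, against 0, 0 and 1 counts in BA libraries and 0 in every XY library. A count of 0 leaves room for levels of 0.360 to 0.479 CPM there, taking 3 counts as the limit of each library. The CYCD6;1 genes Potri.013G149000 and Potri.019G118600, whose Arabidopsis homolog acts in formative divisions of the root, had 86 to 119 counts in PS libraries and at most 9 counts in any BA or XY library of the wild type. The KRP7 gene Potri.004G142100 had 84, 56 and 79 counts in PS libraries against at most 1 in any other wild-type library. The plot of wild-type differences by class gives all 88 members.

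The first question on the transgene is what PagDET2 overexpression does to these genes in each domain. Among A-type cyclins, B-type cyclins and CDKB genes, the mitotic classes of the set, 13 of 23 tested were higher in PagDET2-OE in PS and 14 of 23 in BA. Over all classes, 17 of 87 members tested in PS were higher and 2 lower, against 8.08% and 6.90% of all genes tested. In BA, 20 of 81 were higher and 4 lower, against 6.19% and 5.34%. In XY, 9 of 70 were higher and 6 lower, against 10.0% and 9.34%. A fit over all 18 libraries called 12 of 88 members higher and 2 lower in PS (5.39% and 4.67% of all genes). It called 21 higher and 6 lower in BA (6.36% and 5.91%), and 15 higher and 7 lower in XY (10.7% and 8.96%). Without replicate 3 in any group, a choice made after seeing the data, 19 members were higher and 4 lower in PS (11.1% and 10.1% of all genes), 26 and 8 in BA (11.4% and 10.9%), and 13 and 6 in XY (15.3% and 14.1%). The median log2 fold change of the PS members was 0.10, against 0.001 for all genes tested. It was 0.14 against 0.0 in BA and 0.09 against -0.005 in XY. DEGs were few. In PS 1 member was a DEG, with a higher level in PagDET2-OE, and none was a lower DEG (0.471% and 0.534% of all genes tested). In BA 1 was higher and 1 lower (0.892% and 0.351%), and in XY 1 was higher and 2 were lower (1.15% and 1.95%). In all, 43 members were called in at least 1 domain, 10 were higher in both PS and BA, and none was higher in all 3 domains. No share of all genes is given for these counts, so they are not read as a trait of the members.

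**Figure D1:**
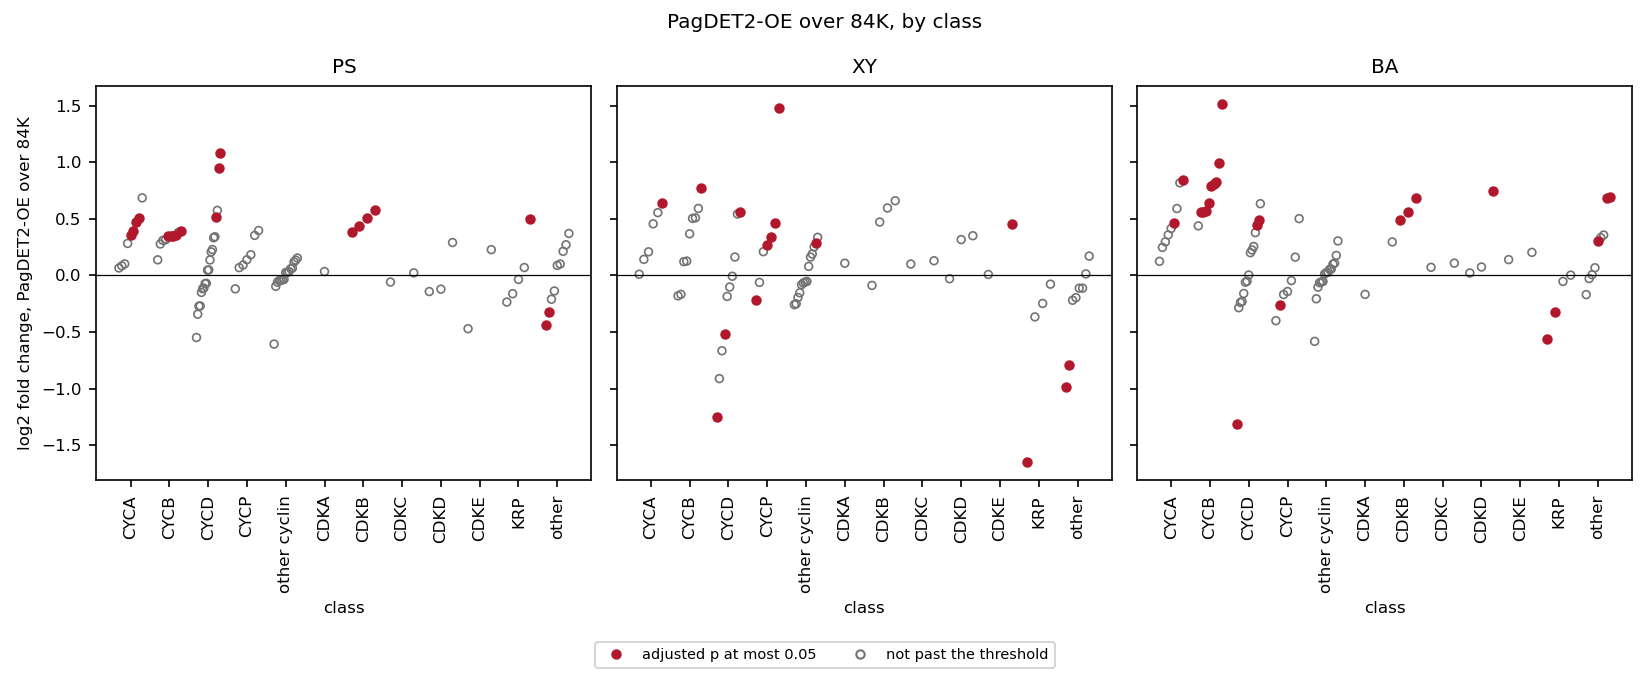
Log2 fold change of each tested member, PagDET2-OE over 84K, in PS, XY and BA, grouped by class along the x axis (filled points, adjusted p at most 0.05, 3 libraries per group). Filled points of the CYCA, CYCB and CDKB classes all lie above 0, with 13 in PS, 2 in XY and 14 in BA, whereas the CYCP class has its filled points mainly in XY and the CDKA and CDKC classes have none.

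No A-type cyclin, B-type cyclin or CDKB gene was called lower in any domain. Of the 13 called higher in PS and the 14 in BA, 9 were higher in both. All 23 had a positive log2 fold change in PS and in BA, with medians of 0.36 and 0.56 (0.001 and 0.0 for all genes). In XY 2 of 19 tested were higher (10.0% of all genes) and 16 of 19 values were positive. Without replicate 3 in any group, 3 were higher in XY, 16 in BA and 11 in PS (15.3%, 11.4% and 11.1% of all genes). For XY that was 15.8% of those tested, near the share of all genes. Shares of all genes that were positive, or higher in both PS and BA, are not given. The summed level of the 3 classes was 571 to 611 CPM in PagDET2-OE libraries against 449 to 469 CPM in wild-type libraries in PS, 443 to 479 CPM in PagDET2-OE against 305 to 315 CPM in wild-type BA, and 188 to 202 CPM in PagDET2-OE against 126 to 137 CPM in wild-type XY. The groups did not overlap in any domain. In XY the CYCB3;1 gene Potri.010G173200 gave the largest part of the sum, which without it was 108 to 125 CPM in PagDET2-OE against 82.5 to 90.8 CPM in the wild type. In these bulk samples, a change in the number of cells of a type and a change in RNA per cell cannot be told apart.

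Of 10 B-type cyclins tested, 9 were higher in PagDET2-OE in BA and 5 in PS, with median log2 fold changes of 0.715 and 0.349. Over all genes, 6.19% and 8.08% were higher. By the test of the difference, 1 of the 10 had a larger effect in BA than in PS (4.74% of all genes). The CYCB1;4 gene Potri.009G066600 (chromosome 9, 6693684 to 6697073) was the only member up at least 2-fold in BA. It had 3.76, 3.29 and 3.47 CPM in PagDET2-OE libraries, from 37 to 40 counts each, against 1.34, 1.47 and 0.927 CPM in wild-type libraries, from 12 to 17 counts. The groups were well apart, with a log2 fold change of 1.51 ± 0.26 (adjusted p = 0.0017). In PS the same gene had 6.09, 5.28 and 5.72 CPM in PagDET2-OE against 5.23, 4.71 and 3.81 CPM in the wild type (0.31 ± 0.17, adjusted p = 0.268), and the difference between BA and PS passed the test (1.19 ± 0.38, adjusted p = 0.0469).

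Its more abundant copy Potri.001G272000 (chromosome 1, 27938069 to 27941054) had 28.3, 25.7 and 32.2 CPM in PagDET2-OE libraries against 16.0, 15.2 and 17.9 CPM in wild-type libraries in BA (0.82 ± 0.11, adjusted p = 0.000274). It was also higher in PS, by 0.39 ± 0.11. In XY it had 4.99, 5.19 and 4.82 CPM in PagDET2-OE against 2.71, 3.56 and 3.96 CPM in the wild type, which did not overlap but did not pass the test (adjusted p = 0.165). Both CYCB1;2 genes and all 3 CYCB2;4 genes were higher in BA, by 0.56 to 0.81, and CYCB2;1 was the B-type cyclin that did not pass there (0.44 ± 0.15, adjusted p = 0.0866).

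Among A-type cyclins, B-type cyclins and CDKB genes, CYCB3;1 gave the smallest adjusted p in XY. In the wild type its copy Potri.010G173200 was higher in XY than in BA, whereas 20 of 23 genes of these classes were lower. Potri.010G173200 (chromosome 10, 17402639 to 17411458) had 80.8, 79.4 and 77.5 CPM in PagDET2-OE libraries against 46.0, 43.3 and 47.1 CPM in wild-type libraries, a log2 fold change of 0.77 ± 0.08 (adjusted p = 1.24e-06). It was also higher in BA (0.56 ± 0.11) and not called in PS (0.14 ± 0.09), and the XY effect exceeded the PS effect (0.66 ± 0.13, adjusted p = 0.00134). Its copy Potri.008G083200, which is low in XY, had 10.3, 9.86 and 10.2 CPM in PagDET2-OE libraries against 4.85, 5.80 and 4.79 CPM in wild-type libraries in BA (0.99 ± 0.15), and 3.37, 2.13 and 2.98 CPM in PagDET2-OE against 2.23, 2.96 and 4.08 CPM in wild-type XY, where the groups overlapped. For that copy the difference of the XY from the BA effect was -1.14 ± 0.29 (adjusted p = 0.00957).

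Among A-type cyclins, 4 of 9 were higher in PS (8.08% of all genes), 2 of 9 in BA (6.19%) and 1 of 6 in XY (10.0%). The CYCA1;1 gene Potri.005G181400 was called in both PS (0.51 ± 0.10) and BA (0.46 ± 0.13). CYCA3;4, of an A-type group tied to S phase, was higher in PS in 2 of 3 tested copies. The clearest was Potri.014G021100 with 29.0, 28.2 and 28.2 CPM in PagDET2-OE libraries against 21.6, 21.3 and 22.3 CPM in wild-type libraries (0.39 ± 0.08, adjusted p = 0.00506). In BA the leading A-type cyclin was the CYCA2;4 gene Potri.001G177100, with 17.5, 17.8 and 16.8 CPM in PagDET2-OE against 7.63, 10.1 and 11.4 CPM in the wild type (0.84 ± 0.14, adjusted p = 0.00135). It did not change in PS beyond the spread (0.10 ± 0.11), and the difference between both domains was 0.72 ± 0.21 (adjusted p = 0.0281). In XY only Potri.018G034100 (CYCA2;2) was called among A-type cyclins (0.635 ± 0.18), with 13.2, 14.6 and 19.6 CPM in PagDET2-OE against 10.7, 7.70 and 11.6 CPM in the wild type.

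B-type CDKs, which occur only in plants and algae, were also higher. All 4 CDKB genes were higher in PS and 3 of 4 in BA (8.08% and 6.19% of all genes). Potri.005G257500 (CDKB2;1, chromosome 5, 25710928 to 25712991) had 94.5, 90.2 and 100 CPM in PagDET2-OE libraries against 71.7, 68.8 and 70.0 CPM in wild-type libraries in PS (0.44 ± 0.06, adjusted p = 0.000118), and 57.5, 57.8 and 52.9 CPM in PagDET2-OE against 36.7, 35.9 and 33.1 CPM in wild-type BA (0.69 ± 0.08, adjusted p = 7.77e-05). These were the smallest adjusted p-values among members higher in either domain. In XY it had 10.6, 9.05 and 12.4 CPM in PagDET2-OE against 8.94, 5.63 and 8.15 CPM in the wild type, a difference of 0.47 ± 0.20 that did not pass (adjusted p = 0.11). None of the 4 differed between domains in its response to the transgene by the test of the difference.

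**Figure D2:**
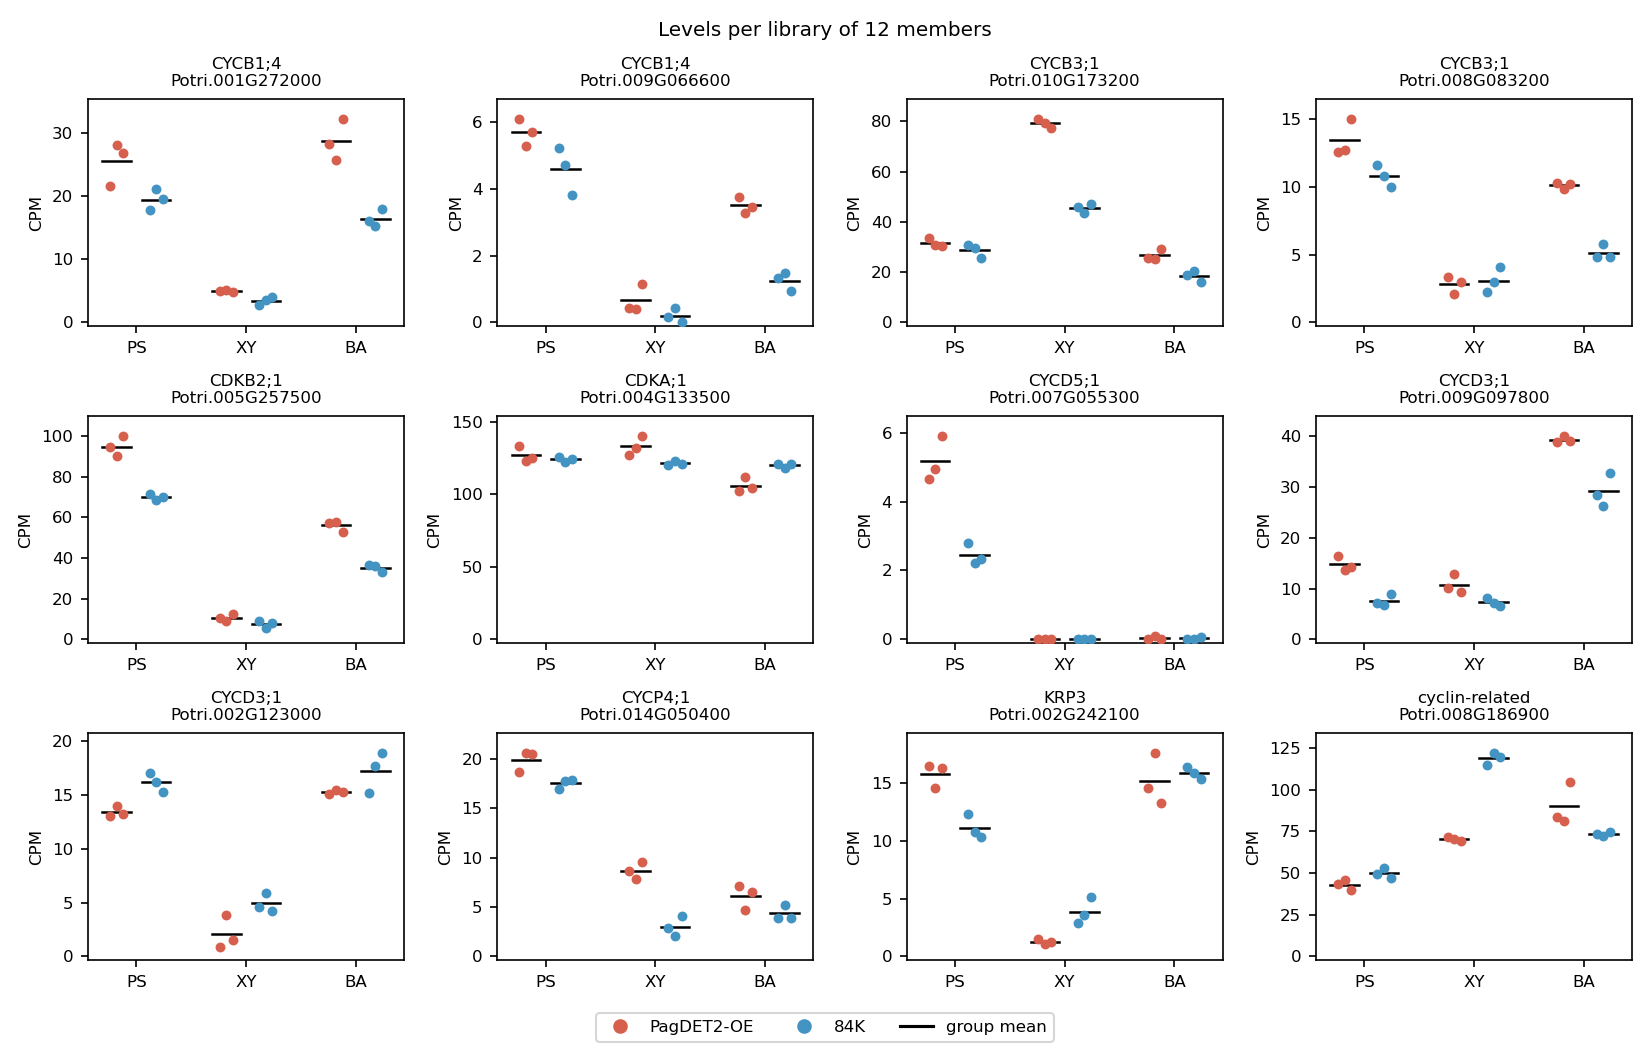
CPM of 12 members in each library, PagDET2-OE (red) left of 84K (blue) within PS, XY and BA, with the group mean as a bar. In BA the 3 PagDET2-OE points of CYCB1;4 Potri.001G272000 (25.7 to 32.2 CPM) lie above the 84K points (15.2 to 17.9 CPM), CDKA;1 stays between 102 and 140 CPM in every library, and KRP3 Potri.002G242100 is higher in PagDET2-OE in PS and lower in XY.

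Few D-type cyclins were called. Of 20 tested in PS, 3 were higher and none lower (8.08% and 6.90% of all genes). In BA 2 of 15 were higher and 1 lower (6.19% and 5.34% of all genes), and in XY 1 of 10 was higher and 2 lower (10.0% and 9.34%), with class medians of 0.05, 0.00 and -0.14. CYCD5;1, linked in Arabidopsis to endoreduplication, was the only DEG in PS. Potri.007G055300 (chromosome 7, 5809515 to 5811111) had 4.67, 4.94 and 5.90 CPM in PagDET2-OE libraries, from 46, 58 and 65 counts, against 2.80, 2.22 and 2.32 CPM in wild-type libraries, from 30, 25 and 25 counts. The groups did not overlap (1.08 ± 0.20, adjusted p = 0.00183). Over the 6 BA and XY libraries of each genotype it had 1 count in PagDET2-OE and 1 in the wild type, so that no change outside PS was detectable at this depth. The other copy, Potri.014G016700, had at most 5 counts in any library and was not tested.

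Several CYCD3 genes, whose Arabidopsis homologs set cell number in the cambium, were among the more abundant D-type cyclins. Potri.014G023000, the CYCD3;1 copy with the highest mean FPKM over the 18 libraries, was called in no domain. It changed by 0.23 ± 0.08 in PS, 0.20 ± 0.08 in BA and 0.16 ± 0.14 in XY. Adjusted p-values were 0.0735, 0.119 and 0.464. Potri.009G097800 (CYCD3;1) had 16.4, 13.6 and 14.3 CPM in PagDET2-OE libraries against 7.19, 6.76 and 8.92 CPM in wild-type libraries in PS, almost a doubling (0.95 ± 0.14, adjusted p = 0.000208). In BA, where it is more abundant, it had 38.8, 40.0 and 39.0 CPM in PagDET2-OE against 28.5, 26.3 and 32.8 CPM in the wild type (0.44 ± 0.09, adjusted p = 0.00548). In XY it had 10.1, 12.9 and 9.30 CPM in PagDET2-OE against 8.14, 7.11 and 6.59 CPM in the wild type and just missed the threshold (adjusted p = 0.0524). The CYCD3;2 gene Potri.005G141900 was higher in BA, with 44.8, 49.5 and 43.2 CPM in PagDET2-OE against 30.5, 32.3 and 35.9 CPM in the wild type (0.49 ± 0.08, adjusted p = 0.00199). It had 22.3, 30.1 and 27.1 CPM in PagDET2-OE against 27.4, 24.7 and 26.4 CPM in the wild type in XY, and the difference of the XY from the BA effect was -0.455 ± 0.13 (adjusted p = 0.0165).

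A further CYCD3;1 copy went the other way. Potri.002G123000 was a DEG in XY with 0.880, 3.86 and 1.49 CPM in PagDET2-OE libraries against 4.63, 5.93 and 4.20 CPM in wild-type libraries (-1.25 ± 0.39, adjusted p = 0.034). One PagDET2-OE library lay close to the wild type, and 4 of 12 alternative fits lost the call. In XY the copy Potri.001G301800 was higher, with 12.3, 14.4 and 13.7 CPM in PagDET2-OE against 7.66, 8.89 and 10.2 CPM in the wild type (0.56 ± 0.16, adjusted p = 0.0224). CYCD2;1 (Potri.002G103500), which had its highest wild-type CPM in XY, was lower there, with 7.33, 9.05 and 9.07 CPM in PagDET2-OE against 12.3, 11.7 and 12 CPM in the wild type (-0.52 ± 0.16, adjusted p = 0.0325). The CYCD1;1 gene Potri.007G005700 was a DEG in BA on few counts, with 4, 7 and 6 in PagDET2-OE libraries against 12, 15 and 18 in wild-type libraries (-1.31 ± 0.37, adjusted p = 0.0377), and 8 of 12 alternative fits lost this call.

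P-type cyclins were called most often in XY. There, 4 of 7 tested were higher and 1 lower in PagDET2-OE (10.0% and 9.34% of all genes). In PS none of 7 was called (8.08% and 6.90%), and in BA 1 was lower (5.34%). CYCP4;1 (Potri.014G050400, chromosome 14, 4048390 to 4049785) was the DEG among them. It had 8.65, 7.85 and 9.53 CPM in PagDET2-OE libraries against 2.87, 2.07 and 4.08 CPM in wild-type libraries in XY, with no overlap (1.47 ± 0.24, adjusted p = 0.000318). In PS it had 18.7, 20.6 and 20.5 CPM in PagDET2-OE against 17.0, 17.8 and 17.9 CPM in the wild type (0.18 ± 0.10, adjusted p = 0.23), and in BA 7.15, 4.71 and 6.49 CPM in PagDET2-OE against 3.92, 5.19 and 3.94 CPM in the wild type (0.50 ± 0.20, adjusted p = 0.129). The XY effect exceeded the PS effect by 1.315 ± 0.26 (adjusted p = 0.00114) and the BA effect by 1.01 ± 0.28 (adjusted p = 0.017).

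The second expressed CYCP4;1 gene, Potri.012G114600, is the more abundant copy in XY. It had 90.5, 95.2 and 97.9 CPM in PagDET2-OE libraries against 68.1, 73.0 and 79.2 CPM in wild-type libraries in XY (0.34 ± 0.07, adjusted p = 0.0033). The remaining copies of that symbol had at most 10 counts in any library. Potri.002G143400 (CYCP3;2) had 66.9, 66.4 and 70.2 CPM in PagDET2-OE against 49.0, 52.4 and 44.2 CPM in wild-type XY (0.46 ± 0.09, adjusted p = 0.000958), whereas in BA it had 51.4, 48.7 and 38.0 CPM in PagDET2-OE against 51.4, 54.6 and 50.7 CPM in the wild type. The difference between XY and BA was 0.67 ± 0.14 (adjusted p = 0.00134). CYCP1;1 (Potri.002G052800), the most counted member of XY, was lower in PagDET2-OE, with 264, 271 and 273 CPM in PagDET2-OE against 309, 304 and 312 CPM in wild-type XY (-0.22 ± 0.05, adjusted p = 0.00286) and 49.7, 51.1 and 51.9 CPM in PagDET2-OE against 63.4, 60.8 and 60.7 CPM in wild-type BA (-0.26 ± 0.07, adjusted p = 0.0221).

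CDKA;1, the main partner of D-type cyclins, was called in no domain. Potri.004G133500 (chromosome 4, 15362326 to 15366673) averaged 127 ± 4.91 CPM in PagDET2-OE and 124 ± 2.47 CPM in wild-type PS libraries, 133 ± 6.45 CPM in PagDET2-OE and 121 ± 1.56 CPM in wild-type XY libraries, and 106 ± 5.13 CPM in PagDET2-OE and 120 ± 1.68 CPM in wild-type BA libraries (SD, n = 3 each). Adjusted p-values for PS, XY and BA were 0.736, 0.236 and 0.086, none of which passed, whereas the difference between the XY and BA effects passed the test (0.32 ± 0.08, adjusted p = 0.00949). On the FPKM scale of the wild type it had 53.0 ± 0.959 FPKM in XY against 77.1 ± 1.3 FPKM in BA. The log2 fold change of the counts, XY over BA, was 0.03 ± 0.06 with TMM scaling and -0.54 with library totals as the scale. The other CDKA members had next to no counts.

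Few members of the CDKC, CDKD, CDKE and other cyclin classes were called. Neither CDKC;1 gene was called in any domain, with log2 fold changes of -0.06 to 0.13. Of 15 other cyclins tested in PS and 15 in BA none was called (8.08% and 6.19% of all genes higher). Of 14 in XY 1 was higher (10.0% of all genes), Potri.006G048400, described only as a cyclin-like family protein. It had 102, 103 and 100 CPM in PagDET2-OE libraries against 82.2, 86.5 and 77.8 CPM in wild-type libraries (0.285 ± 0.07, adjusted p = 0.00697). CYCH;1, the partner of CDKD, had log2 fold changes of 0.06 in PS, 0.30 in BA and 0.34 in XY, none of which passed (adjusted p = 0.0925 in XY). Both CYCT1;4 genes, partners of CDKC, lay between -0.26 and 0.03. The CDKD1;3 gene Potri.012G052100, of a group that activates other CDKs, was higher in BA, with 10.5, 9.77 and 13.1 CPM in PagDET2-OE against 6.70, 6.06 and 7.34 CPM in the wild type (0.74 ± 0.15, adjusted p = 0.00642), and not in PS (-0.14 ± 0.11). The difference was 0.87 ± 0.22 (adjusted p = 0.0142). CDKE;1, a kinase of the Mediator complex, was higher in XY for Potri.001G088000 (0.46 ± 0.12, adjusted p = 0.0141), and 4 of 12 alternative fits lost this call.

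**Figure D3:**
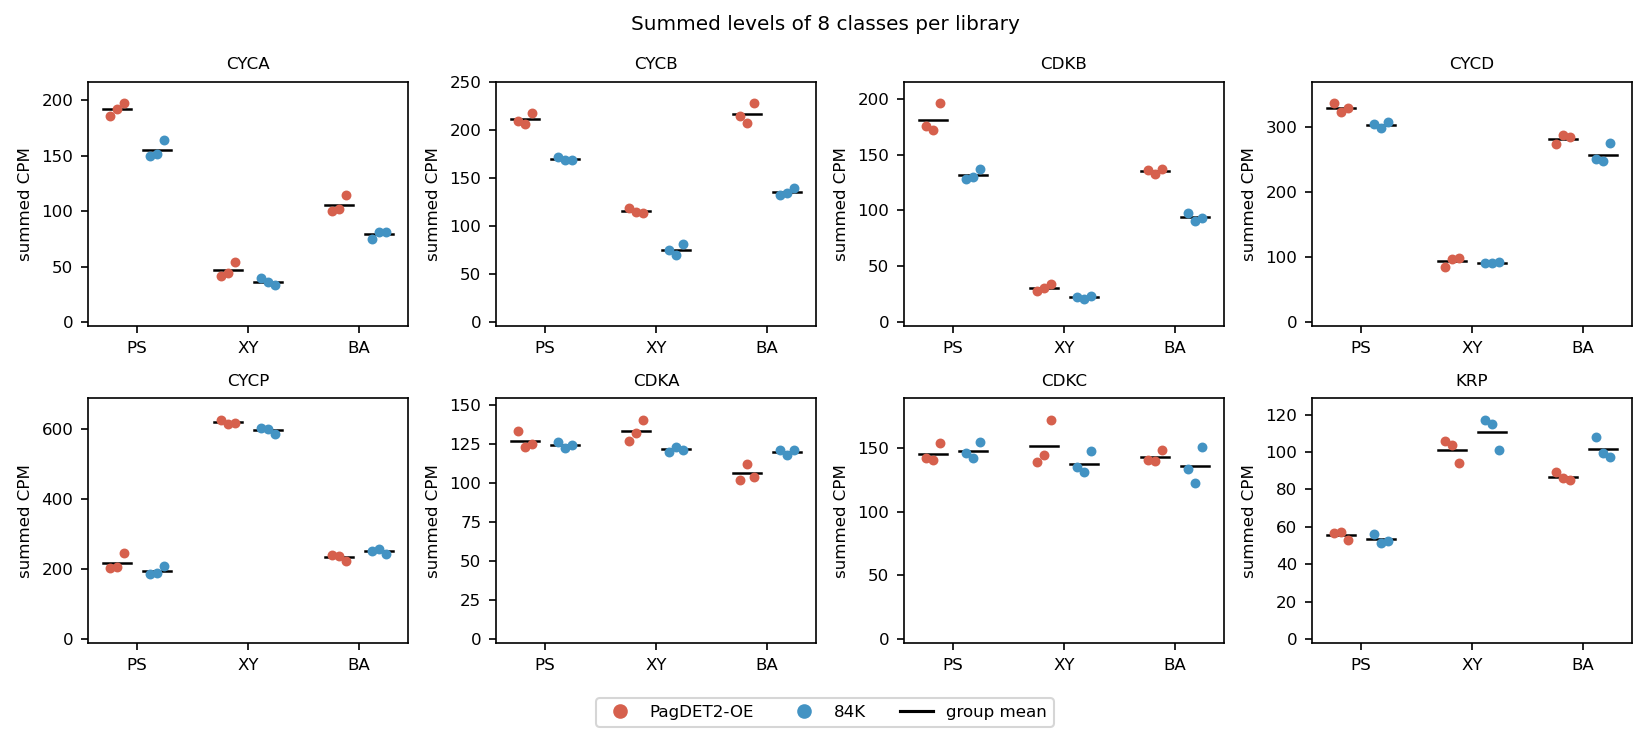
Summed CPM of 8 classes in each library, PagDET2-OE (red) left of 84K (blue) within PS, XY and BA, with the group mean as a bar. The PagDET2-OE points of the CYCB class lie above the 84K points in every domain (208 to 228 CPM in PagDET2-OE against 132 to 140 CPM in wild-type BA). In XY (114 to 119 CPM in PagDET2-OE against 69.6 to 80.9 CPM in the wild type) Potri.010G173200 gave the largest part of the CYCB sum. It was the only B-type cyclin called there. The CDKC class overlaps in every domain, and the KRP points of PagDET2-OE in BA lie below those of 84K (85.0 to 89.4 CPM in PagDET2-OE against 97.6 to 108 CPM in the wild type).

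Among the CDK inhibitors, 1 gene was called in opposite directions in PS and XY. The KRP3 gene Potri.002G242100 (chromosome 2, 23461712 to 23464509) was higher in PagDET2-OE in PS, with 16.5, 14.6 and 16.3 CPM in PagDET2-OE against 12.3, 10.8 and 10.3 CPM in the wild type (0.50 ± 0.12, adjusted p = 0.00815). In XY it was lower, with 1.47, 1.06 and 1.26 CPM in PagDET2-OE against 2.87, 3.56 and 5.15 CPM in the wild type (-1.65 ± 0.34, adjusted p = 0.00242), from 8 to 11 counts in PagDET2-OE against 18 to 43 counts in the wild type. In BA the groups overlapped. The difference of the XY from the PS effect was -2.14 ± 0.30 on the log2 scale (adjusted p = 2.65e-05).

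In BA, 2 of 4 tested KRP genes were lower (5.34% of all genes). Potri.001G314000 (KRP3) had 31.5, 30.6 and 30.9 CPM in PagDET2-OE libraries against 41.8, 38.6 and 37.3 CPM in wild-type libraries (-0.32 ± 0.08, adjusted p = 0.0163). Potri.009G103600 (KRP7) had 11.2, 10.5 and 12.9 CPM in PagDET2-OE against 19.2, 16.1 and 16.4 CPM in the wild type (-0.56 ± 0.13, adjusted p = 0.0103). The most abundant inhibitor of XY, Potri.017G054000, was not called in any domain, with log2 fold changes of -0.16 to 0.00.

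The remaining class held a pair of genes, described only as cyclin-related, whose response differed by domain. Potri.008G186900 (chromosome 8, 12891914 to 12898280) had 71.6, 70.5 and 69.0 CPM in PagDET2-OE libraries against 115, 122 and 120 CPM in wild-type libraries in XY (-0.79 ± 0.07, adjusted p = 1.34e-07), the smallest adjusted p of any member between genotypes. In BA it had 83.7, 81.3 and 105 CPM in PagDET2-OE against 73.4, 72.2 and 74.9 CPM in the wild type (0.305 ± 0.09, adjusted p = 0.0453). Potri.010G046000 had 30.2, 33.1 and 31.6 CPM in PagDET2-OE against 55.5, 57.0 and 71.1 CPM in wild-type XY (-0.98 ± 0.10, adjusted p = 1.9e-06) and 29.9, 25.8 and 26.2 CPM in PagDET2-OE against 34.9, 35.9 and 39.9 CPM in wild-type PS (-0.44 ± 0.09). The difference of the XY from the BA effect was -1.05 ± 0.11 for Potri.008G186900 (adjusted p = 2.21e-07) and -1.296 ± 0.17 for Potri.010G046000 (adjusted p = 7.92e-06). Potri.001G246100, described as Brf1-like, was also lower in PagDET2-OE in PS (-0.32 ± 0.08, adjusted p = 0.0172). Both TAN genes were higher in BA. Potri.005G033200 had 18.3, 18.9 and 15.7 CPM in PagDET2-OE against 11.7, 13.1 and 8.73 CPM in the wild type (0.68 ± 0.15, adjusted p = 0.00823).

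Whether the transgene acted differently between domains was tested in 1 fit over all 18 libraries. Of 88 members, 5 had a higher and 1 a lower effect in BA than in PS (4.74% and 4.53% of all genes tested), 5 a higher and 7 a lower effect in XY than in BA (6.90% and 6.42%), and 3 a higher and 4 a lower effect in XY than in PS (5.12% and 5.01%). Apart from the single lower effect for BA against PS, these shares are near those of all genes. Without replicate 3 in any group they were 10 and 6 for BA against PS (7.64% and 7.78% of all genes), 9 and 5 for XY against BA (10.6% and 8.39%), and 5 and 7 for XY against PS (8.86% and 7.91%). These counts also moved with single libraries, for which no share of all genes is given. For BA against PS, the 5 higher became 3 without PagDET2-OE PS replicate 1 or 2, wild-type PS replicate 1 or 2, PagDET2-OE BA replicate 2 or 3 or wild-type BA replicate 1. The 1 lower became 0 without wild-type PS replicate 1 or 2, PagDET2-OE BA replicate 1 or wild-type BA replicate 1 or 2, and 2 and 3 without PagDET2-OE PS replicate 2 and wild-type PS replicate 3. For XY against BA, the 5 higher became 3 without PagDET2-OE BA replicate 3, wild-type BA replicate 2, PagDET2-OE XY replicate 2 or wild-type XY replicate 1 or 2, and the 7 lower became 4 without wild-type BA replicate 1. For XY against PS, the 4 lower became 2 without PagDET2-OE XY replicate 1 or wild-type XY replicate 2.

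Other cell cycle genes, from lists of symbols outside the rule, were counted in the same fits, in which the genes called higher made up 10.0% of all genes in XY, 6.19% in BA and 8.08% in PS. Of S phase genes (MCM, ORC, PCNA and other replication genes), 23 of 31 tested were higher in PS, 9 of 31 in BA and 1 of 28 in XY, with none lower and medians of 0.43, 0.22 and 0.14. Of mitosis and cytokinesis genes (AUR, CDC20, KNOLLE, kinesins and others), 9 of 34 were higher in PS, 23 of 36 in BA and 1 of 32 in XY, with none lower and medians of 0.19, 0.66 and 0.16. By the test of the difference, 5 of 36 mitosis genes had a higher effect in BA than in PS and 3 of 31 S phase genes a lower one (4.74% and 4.53% of all genes). Counts in the remaining lists were small. Of restriction point genes (RBR, E2F and DP), 2 of 10 were higher in PS, 1 of 10 higher in BA and 1 of 10 lower in XY. The list of cell cycle brakes, which holds WEE1, APC/C subunits and activators, CKS2 and the KRP2 and KRP6 genes that the rule did not take, had 4 of 20 higher and 1 lower in PS, 2 of 19 higher in BA and 1 of 19 higher in XY.

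Markers of stem cell types were read beside these counts. Of all genes tested, 8.08% were higher and 6.90% lower in PS, 6.19% and 5.34% in BA, and 10.0% and 9.34% in XY. Small marker counts were not set apart from these shares by a test. In BA, 13 of 21 tested markers of xylem with secondary wall were lower in PagDET2-OE and 1 higher, with a summed level of 689 to 748 CPM in PagDET2-OE against 981 to 1070 CPM in the wild type, while none of 11 cambium markers was called (1930 to 2030 CPM in PagDET2-OE against 1990 to 2070 CPM in the wild type). In XY, 14 of 28 such xylem markers were higher (28900 to 31100 CPM in PagDET2-OE against 25000 to 26300 CPM in the wild type), and 1 of 10 cambium markers was higher and 2 lower (2360 to 2480 CPM in PagDET2-OE against 2480 to 2590 CPM in the wild type). In PS, 3 of 8 epidermis markers were higher and 1 lower (257 to 280 CPM in PagDET2-OE against 239 to 250 CPM in the wild type), and 2 of 11 shoot apex markers were lower (590 to 639 CPM in PagDET2-OE against 618 to 659 CPM in the wild type). The summed cambium level in PS was 609 to 620 CPM in PagDET2-OE against 639 to 652 CPM in the wild type, without overlap, with 1 of 11 markers higher and 3 lower. In XY 4 of 11 shoot apex markers were lower and none higher (267 to 272 CPM in PagDET2-OE against 300 to 320 CPM in the wild type). Of 10 phloem markers tested in BA, 2 were higher and 1 lower (1210 to 1230 CPM in PagDET2-OE against 1200 to 1230 CPM in the wild type). Phloem sums did not overlap in PS (63.8 to 69.8 CPM in PagDET2-OE against 74.2 to 79.5 CPM in the wild type) or XY (1030 to 1070 CPM in PagDET2-OE against 1130 to 1170 CPM in the wild type), with 1 marker higher and 1 lower in each, of 9 tested in PS and 3 in XY. No cambium marker was at 0 in any domain, whereas in PS 7 of 35 xylem markers, 3 of 19 shoot apex markers (a KNAT6, an STM and a WUS gene) and 5 of 16 epidermis markers had no count in the 6 libraries. The part of cell makeup in the changes of the members was not tested. Xylem markers set XY apart from BA, with 29 of 29 tested higher in XY (33.6% of all genes). Epidermis markers set PS apart from BA, with 8 of 8 tested higher in PS (34.8% of all genes). Shoot apex markers did not set PS apart, with 3 of 12 higher and 6 lower in PS than in BA (34.8% and 33.2%). Cambium markers did not set BA apart from XY, with wild-type sums of 1990 to 2070 CPM in BA against 2480 to 2590 CPM in XY. Phloem sums in the wild type were 1200 to 1230 CPM in BA and 1130 to 1170 CPM in XY. Of 13 phloem markers only 3 passed the filter in the XY libraries, so the XY sum rests mainly on few genes. It is not read as a measure of phloem content, and counts of phloem markers between XY and BA are not given.

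Counts of members depended on single libraries in places. The share of all genes called in each of these fits is not given. The counts show how the calls moved and are not read as a trait of the members. In PS the 17 members higher became 9 without wild-type PS replicate 1 and 11 without wild-type PS replicate 2, and DESeq2 and limma on log2(FPKM + 0.5) called 11 each. The 2 lower in PS became 1 without replicate 1 or 2 of either genotype and 4 without wild-type PS replicate 3. In BA the 20 members higher stayed between 17 and 21 with any 1 library left out, whereas the 4 lower became 0 without PagDET2-OE BA replicate 2 or wild-type BA replicate 1 and 2 without PagDET2-OE BA replicate 1 or wild-type BA replicate 2. In XY the 9 members higher were 6 to 9 with any 1 library left out. The named calls in PS for Potri.005G257500, Potri.009G097800, Potri.007G055300 and Potri.002G242100, in BA for both CYCB1;4 and both CYCB3;1 genes, and in XY for Potri.010G173200, Potri.014G050400, Potri.002G242100 and Potri.008G186900 held in all 12 alternative fits of their domain. Without replicate 3 in any group, 3 of the calls between genotypes were lost, for CYCB2;4 Potri.002G010000 and CYCB1;4 Potri.001G272000 in PS and CYCD3;1 Potri.002G123000 in XY. Other named calls were lost in some of the 12 fits, in 7 for CYCD2;1 in XY, in 6 each for CYCP1;1 and Potri.008G186900 in BA, in 5 for CYCA1;1 Potri.005G181400 in BA, in 4 each for CYCB1;4 Potri.001G272000 in PS and CYCD3;1 Potri.001G301800 in XY, in 3 each for KRP3 Potri.001G314000 and TAN Potri.013G022600 in BA and for CYCA2;2 Potri.018G034100 in XY, and in 2 for KRP7 Potri.009G103600 in BA.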

How the data were processed

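Stem domains of PagDET2-OE and wild-type 84K poplar were profiled by RNA-seq, with 3 libraries per domain and genotype. Per the labels and the study's methods, the authors aligned reads with HISAT2 (2.0.4) and used StringTie (1.3.0), with the P. trichocarpa v3.1 gene models. The deposited table holds raw counts per gene and FPKM values, which the authors scaled to gene length and library size. How reads shared by copies, and strand, were handled is not given in the sources used here. Library totals were 7983668 to 12052409 counts. Replicates of a group differed by more than sampling noise, so no library was counted as a duplicate. Replicate 3 lay further from replicates 1 and 2 than these from each other in every group.

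Counts were tested with edgeR (4.0.16, R 4.3.3) by the quasi-likelihood test with robust dispersion, TMM scaling and filterByExpr at its defaults (minimum count 10). Genotypes were compared in each domain over its 6 libraries, differences between domains over all 18, and wild-type domains over the 9 wild-type libraries. Benjamini-Hochberg adjustment ran over all genes tested. The threshold for a call was an adjusted p of 0.05, with a 2-fold change needed for a DEG. Each fit was checked on simulated data. Alternatives were DESeq2 (1.42.0), size factors, no filter, a replicate block, 1 library left out, a joint fit and limma (3.58.1) on log2(FPKM + 0.5). Library totals as the scale and fits with no replicate 3 in any group were added after seeing the data.

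Members and lists were chosen with earlier results of these data known. Rules for naming genes took all copies of CYCD5;1, CYCP4;1 and CYCB1;4, all DEGs and the smallest adjusted p-values per domain and direction. They also took members called between domains, the highest FPKM per class and the largest wild-type changes. Some genes that these rules took are given only as part of a count or not at all. Further genes in the text were picked with their values known. A symbol match to genes of other families was removed from the lists for 17 genes. Of 9 pairs of groups, the replicate numbers of PS and BA in the wild type deviated together (r of 0.109, 0.101 and 0.157). Numbers in the labels say nothing of a shared tree. No fold changes or p-values of the authors were used. No sequences were looked up.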

Additional observations from a re-analysis of the deposited data

Results flagged for a closer look

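The members below were set apart because the effect of PagDET2 overexpression differed between domains by edgeR's test of the difference over all 18 libraries (Benjamini-Hochberg adjusted p of at most 0.05). Values are differences of log2 fold changes. For the effect in BA minus that in PS they were 0.775 for Potri.010G046000, 0.499 for Potri.008G186900, 0.869 for Potri.012G052100 (CDKD1;3), 0.721 for Potri.001G177100 (CYCA2;4), -0.344 for Potri.002G052800 (CYCP1;1) and 1.188 for Potri.009G066600 (CYCB1;4). The last had an adjusted p of 0.0469, and the first 0.00422.

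For XY minus BA, the negative values were -1.052 for Potri.008G186900, -1.296 for Potri.010G046000, -1.572 for Potri.002G242100 (KRP3), -1.137 for Potri.008G083200 (CYCB3;1), -0.455 for Potri.005G141900 (CYCD3;2), -1.05 for Potri.002G123000 (CYCD3;1) and -5.087 for Potri.001G292300 (CYCD1;1). The positive ones were 0.668 for Potri.002G143400 (CYCP3;2), 0.317 for Potri.004G133500 (CDKA;1), 1.012 for Potri.014G050400 and 0.423 for Potri.012G114600 (both CYCP4;1), and 0.301 for Potri.006G048400.

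For XY minus PS they were -2.141 for Potri.002G242100, 1.315 for Potri.014G050400, 0.662 for Potri.010G173200 (CYCB3;1), -0.552 for Potri.008G186900, 2.398 for Potri.014G005900 (CYCD1;1), -5.257 for Potri.001G292300 and -2.534 for Potri.015G067500. The XY counts behind 3 of these are sparse. Potri.001G292300 had 0, 0 and 0 counts in PagDET2-OE XY libraries against 0, 5 and 2 in wild-type XY libraries, so its fitted values depend on the prior count and are no bound. Potri.014G005900 had 8, 8 and 8 counts in PagDET2-OE against 1, 1 and 4 in the wild type, and Potri.015G067500 had 1, 2 and 0 counts in PagDET2-OE against 4, 7 and 7 in the wild type.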

How the results depend on the processing

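Of 264 counts of members under alternatives, 213 stayed within 1.5 times the main count. Shares of all genes are not set beside the member counts of this section, which show only how the calls moved. In PS, 11 members were higher and 1 lower with DESeq2, 11 higher with limma on log2(FPKM + 0.5), and 4 lower with the replicate block. In BA, 1 was lower with DESeq2, and in XY, 15 were higher in a fit over all 18 libraries. For BA minus PS, 2 were lower with the block and 4 in a fit of the 12 libraries, and for XY minus BA, 3 were higher in such a fit. With library totals as the scale, 8 were higher in XY than in BA and 14 lower in PS than in XY. With no replicate 3 in any group, 4 were lower in PS and 8 in BA, 10 were higher and 6 lower for BA minus PS, 9 were higher for XY minus BA, and 5 were higher and 7 lower for XY minus PS. With 1 library left out, members higher and lower were 9 to 19 and 1 to 4 in PS, 17 to 21 and 0 to 4 in BA, 6 to 9 and 4 to 5 in XY, 3 to 7 and 0 to 3 for BA minus PS, 3 to 5 and 4 to 8 for XY minus BA, and 3 to 4 and 2 to 5 for XY minus PS, and in the wild type 21 to 24 and 44 to 47 for XY over BA, 29 to 37 and 22 to 25 for PS over BA, and 47 to 52 and 21 to 25 for PS over XY.

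The replicate block gave 24 higher and 4 lower in PS, 24 and 6 in BA, 11 and 6 in XY, and 34 and 27 for PS over BA in the wild type. Genotype groups share only replicate numbers. Of 533 values of single genes between genotypes, 460 kept direction and call, 73 lost the call and 0 changed sign. For differences between domains 59 of 378 lost the call. Among wild-type values, 11 of 1352 changed sign. In PagDET2-OE libraries XY over BA was -0.352 for Potri.008G186900 and -1.035 for Potri.010G046000, PS over BA was -0.025 for Potri.001G088000, -0.128 for Potri.001G177100 and 0.059 for Potri.002G242100, and PS over XY was -0.699 for Potri.001G088000. With library totals XY over BA was -0.374 for Potri.012G003700, -0.241 for Potri.001G088000, -0.314 for Potri.009G088600 and -0.296 for Potri.010G046000, and PS over XY was 0.127 for Potri.016G057100. Apart from the scale, whose change moves the median of all genes, the cause was not tested. Members near the count minimum, among them D-type cyclins in XY, limit what could be detected.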

Other observations

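The CDKE;1 gene Potri.001G088000 had 325, 373 and 17 counts in PagDET2-OE PS libraries against 294, 353 and 352 counts in wild-type PS libraries. Of 9877 genes with at least 20 CPM in each of the other 5 PS libraries, 3 lay over 10-fold below the lowest of them in PagDET2-OE PS replicate 3, this gene among them. In each of the other libraries 1 to 6 genes did so.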
